A study of Mus musculus with 9 samples.

Results

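A set of 9 genes that mark cardiac macrophages and monocytes, Cd68, Adgre1, Csf1r, Cx3cr1, Trem2, Lyve1, Mrc1, Cd163 and Ccr2, was followed in whole mouse hearts. They were chosen by gene symbol, and 9 of 9 were found in each count table, which hold 26234 genes at the age of 1 week, 24222 at that of 4 weeks and 30074 at that of 8 weeks. All 9 passed the filter on low counts at each age. The study compared hearts with constitutive expression of Klf9 in cardiomyocytes (Klf9KI, alphaMHC-Cre plus the Klf9 knock-in) with hearts that carry alphaMHC-Cre alone (Wt-Cre). Both groups therefore carry the Cre, whose alphaMHC promoter is active in cardiomyocytes and not in macrophages. RNA was sequenced from 3 hearts of each genotype at each of the 3 ages, and the labels give neither sex, strain background nor litter, so the p-values measure the spread between these hearts. Klf9-bound chromatin was mapped in a separate experiment, with 1 library from sham-operated hearts and 1 library after 2 weeks of TAC, a constriction of the aorta that loads the left ventricle, from mice aged 12 to 14 weeks.

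The heart holds macrophages that settled there before or around birth and renew locally, and others that derive from circulating monocytes. Macrophages depend for survival on Csf1r, the receptor for the growth factors Csf1 and Il34. Resident cells are commonly recognised by the hyaluronan receptor Lyve1, the mannose receptor Mrc1 and the haemoglobin-haptoglobin scavenger receptor Cd163, whereas Ccr2, the receptor for the chemokines Ccl2, Ccl7 and Ccl12, marks monocytes and the macrophages they give rise to. Cd68 is a lysosomal glycoprotein and Adgre1 an adhesion receptor long used to identify mouse macrophages. Cx3cr1 is the receptor for fractalkine (Cx3cl1), and Trem2 is a lipid-sensing receptor of macrophages with high lipid uptake. None of these genes is exclusive to macrophages. Lyve1 and Mrc1 are also expressed by lymphatic endothelium, and Cx3cr1 by some lymphocytes. Cd68, Adgre1, Csf1r, Cx3cr1 and Trem2 are called pan-macrophage genes here as the name of a group, not as a finding.

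The 250 bases before the start of 4 of the genes are shown to set motifs of myeloid and Klf-family factors beside the RNA values. The sequences are those of RefSeq (GRCm38.p6), which matched 6 of the 9 genes, and those of Cd68, Trem2, Mrc1 and Cd163 are printed because their starts lay within 30 bases of those in the gene table. Capitals mark the PU box GAGGAA or TTCCTC, the core motif of the myeloid factor Spi1, the GT box CACCC or GGGTG, and the GC box GGGCGG or CCGCCC, the last 2 being motifs that factors of the Klf family recognise. Both strands were searched, and no match shares bases with another in the 4 sequences. Sequences run 5′ to 3′ on the strand of the gene.
Cd68 (chr11:69666171-69666420, minus strand): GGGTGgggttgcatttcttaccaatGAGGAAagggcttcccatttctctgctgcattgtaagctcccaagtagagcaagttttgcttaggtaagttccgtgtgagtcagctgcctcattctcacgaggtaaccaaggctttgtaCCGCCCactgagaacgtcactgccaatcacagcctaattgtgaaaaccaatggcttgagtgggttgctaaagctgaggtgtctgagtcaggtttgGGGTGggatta
Trem2 (chr17:48346151-48346400, plus strand): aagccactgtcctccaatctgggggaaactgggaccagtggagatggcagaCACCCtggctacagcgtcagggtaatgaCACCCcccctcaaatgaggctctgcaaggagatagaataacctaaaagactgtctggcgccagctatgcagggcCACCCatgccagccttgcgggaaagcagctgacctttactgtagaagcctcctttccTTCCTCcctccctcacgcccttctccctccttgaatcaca
Mrc1 (chr2:14229164-14229413, plus strand): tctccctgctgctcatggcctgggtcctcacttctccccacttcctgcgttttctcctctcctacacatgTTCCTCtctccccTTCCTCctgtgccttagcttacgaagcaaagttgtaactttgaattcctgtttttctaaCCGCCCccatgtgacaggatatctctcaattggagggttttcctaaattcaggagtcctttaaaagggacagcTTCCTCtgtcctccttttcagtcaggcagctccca
Cd163 (chr6:124304401-124304650, plus strand): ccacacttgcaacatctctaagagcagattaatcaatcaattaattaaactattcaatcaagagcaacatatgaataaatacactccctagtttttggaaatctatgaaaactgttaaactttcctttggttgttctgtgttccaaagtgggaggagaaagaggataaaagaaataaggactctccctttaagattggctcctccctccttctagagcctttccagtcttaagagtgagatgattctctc
The Mrc1 sequence holds 3 PU boxes and 1 GC box, that of Trem2 holds 1 PU box and 3 GT boxes, and that of Cd68 holds 1 PU box, 2 GT boxes and 1 GC box. None of these letters occurs in the Cd163 window. Of 27025 promoters of the same length 23.1% hold a PU box, 51.3% a GT box and 32.9% a GC box.

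Per the gene tables the genes are protein-coding and lie apart from each other on 7 chromosomes. Cd68 is at chr11:69664213-69666153 on the minus strand, and its deposited gene length is 1257 bases. Lyve1 is at chr7:110850607-110863239 and Cx3cr1 at chr9:119901616-120069879, both on the minus strand. On the plus strand are Adgre1 at chr17:57358691-57483527, Trem2 at chr17:48346401-48354147, Csf1r at chr18:61105572-61132149, Mrc1 at chr2:14229392-14332057, Cd163 at chr6:124304656-124330527 and Ccr2 at chr9:124101950-124113557 (mm10, the build named in the submitters' processing notes). The deposited gene model of Cx3cr1 overlaps 9 other genes, of which Csrnp1, Xirp1 and Gorasp1 are on its own strand, and the end of Csf1r overlaps Hmgxb3 on the opposite strand. The strand setting of the counting is not given in the sources used here. Counts of Cx3cr1 and Csf1r are uncertain to that extent.

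Klf9 checked the genotype labels. Its level, in CPM (counts scaled to the effective library size, within an age), was 193, 222 and 183 in Klf9KI hearts and 23.2, 21.9 and 17.2 in Wt-Cre hearts at 1 week. At 8 weeks it was 108, 122 and 111 against 43.8, 65.6 and 40.6. At 4 weeks the groups were closer, at 143, 179 and 167 against 113, 143 and 123, a log2 fold change of 0.37 (SE 0.14) that did not pass the test (edgeR quasi-likelihood test, adjusted p = 0.111). Each heart had between 17225388 and 32855383 counts at 1 week, between 12086856 and 14890828 at 4 weeks, and between 12543825 and 19912542 at 8 weeks. Among the hearts at 1 week, Klf9KI hearts 1 and 2 carried Xist at 710 and 607 CPM and the other hearts at each age at no more than 3.48 CPM, so that sex and genotype are partly mixed at that age. The mitochondrial share of the counts at 8 weeks was 27.7 to 29.7% in Wt-Cre and 18.6 to 20.9% in Klf9KI hearts. At 4 weeks it was 20.22 to 24.9% against 19.25 to 19.84%. At 1 week the order was opposite, at 11.01 to 13.05% in Wt-Cre and 13.75 to 14.15% in Klf9KI hearts.

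In Wt-Cre hearts most of the markers rose with age, Cd163 and Mrc1 by the most from 1 to 4 weeks. Cd163 averaged 1.22 CPM at 1 week, 40.8 at 4 weeks and 22.0 at 8 weeks (SD 0.428, 16.6 and 8.50, n = 3 each, on the common scale of all 18 hearts), a log2 increase of 5.06 (SE 0.65, adjusted p = 2.51e-05) from 1 to 4 weeks. From 1 to 4 weeks Mrc1 rose by 2.23, Csf1r by 1.87, Adgre1 by 1.70, Lyve1 by 1.67 and Cd68 by 1.33 on the log2 scale, so 6 of the 9 genes rose, beside 17.4% of all genes tested that rose and 17.6% that fell. Cx3cr1 and Trem2 had log2 differences of -0.33 and -0.95 over that interval, and Ccr2 one of 1.23, none past the threshold (adjusted p = 0.491, 0.244 and 0.119). A batch that went with age cannot be told apart from age here.

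Cx3cr1 ran the other way. Its Wt-Cre level was 10.2 ± 0.956 CPM at 1 week, 8.10 ± 3.87 at 4 weeks and 2.54 ± 1.47 at 8 weeks (SD, n = 3), and it fell by 1.65 in log2 units (SE 0.38, adjusted p = 0.00514) from 4 to 8 weeks. Between those ages 11% of genes tested rose and 8.09% fell, and of the markers Trem2 rose by 1.79 (SE 0.62, adjusted p = 0.048). That Trem2 call was lost without Wt-Cre heart 3 at 8 weeks, where the difference was 1.18 (adjusted p = 0.246), and in 14 of the other alternatives. Over the whole interval from 1 to 8 weeks, when 19.9% of genes rose and 18.4% fell, Cd163, Lyve1, Mrc1, Cd68, Csf1r and Adgre1 were higher and Cx3cr1 was lower, by 1.98 (SE 0.38, adjusted p = 0.000287). The Adgre1 difference of 1.09 (adjusted p = 0.0256) lost its call without any 1 of the 3 Wt-Cre hearts at 1 week (0.92, 1.10 and 1.12) or without Wt-Cre heart 1 or 3 at 8 weeks (1.00 and 1.08). The Ccr2 difference of 1.43 (adjusted p = 0.0645) passed by DESeq2 (1.43, adjusted p = 0.0431) and without Klf9KI heart 1 or 3 at 1 week (1.39 in both).

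**Figure D1:**
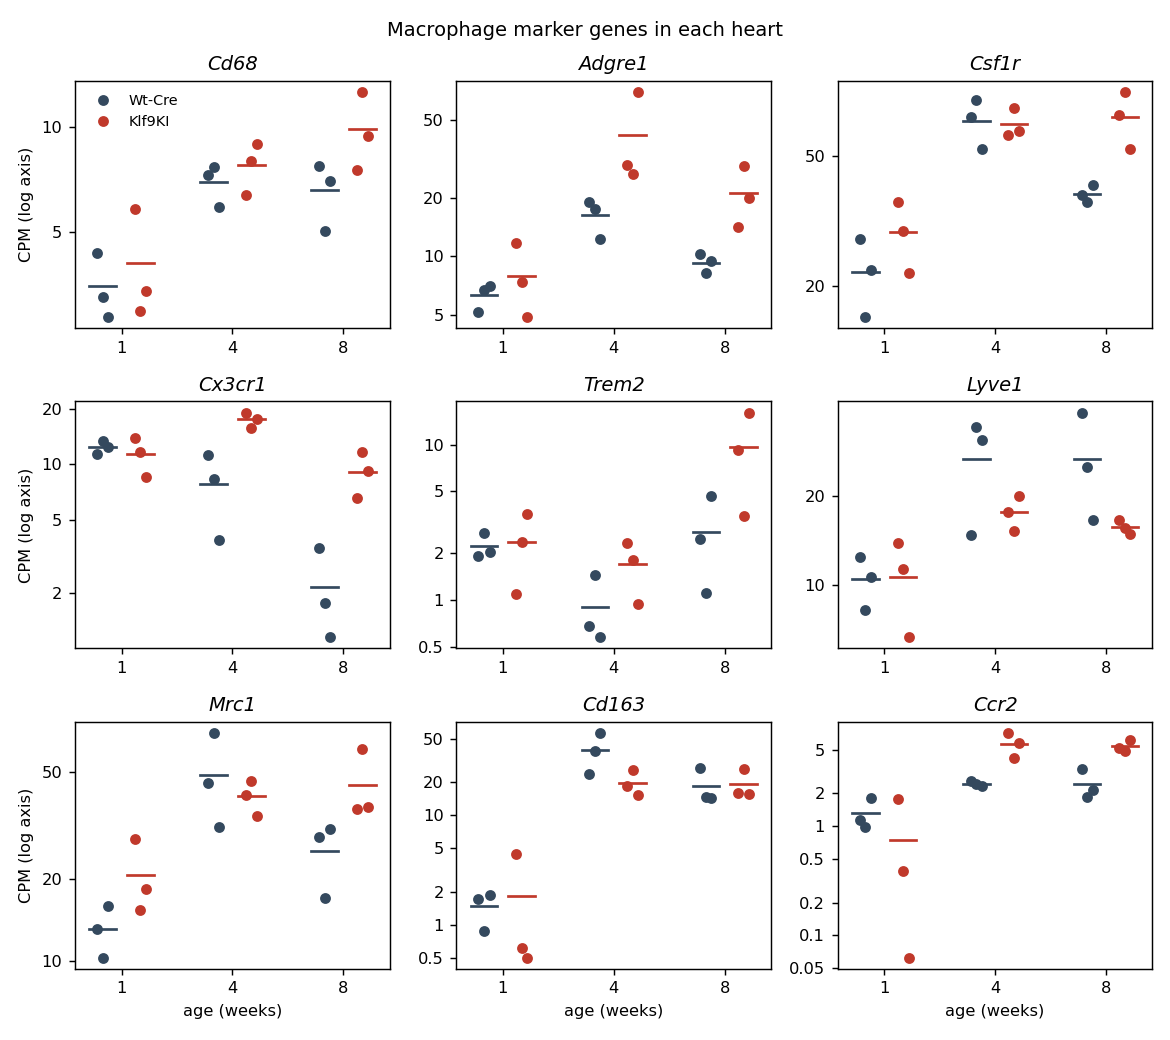
Level of each marker gene in every heart, in CPM on a log axis, by age in weeks; points are hearts, short lines are means of 3 hearts, dark points Wt-Cre and red points Klf9KI. At 8 weeks the 3 Klf9KI hearts lie above the 3 Wt-Cre hearts for Adgre1, Csf1r, Cx3cr1, Mrc1 and Ccr2 and below them for Lyve1.

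At 1 week none of the 9 genes separated the genotypes. The quasi-likelihood test of edgeR called 0 of 9, as did the Wald test of DESeq2, and 1 gene, Mrc1, had an unadjusted p under 0.05. Over all genes 0.651% were called higher and 1.03% lower in Klf9KI hearts, and the 3 hearts of one genotype lay wholly above or below those of the other for 0 of the 9 markers and for 19.9% of all genes. The median log2 fold change of the 9 genes was 0.21, beside -0.01 for all genes tested. Mrc1, a resident marker, had 28.3, 15.4 and 18.4 CPM in Klf9KI hearts against 13.1, 10.3 and 15.9 CPM in Wt-Cre hearts, with a log2 fold change of 0.66 (SE 0.24, adjusted p = 0.211). The lowest Klf9KI heart lay below the highest Wt-Cre heart.

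Ccr2 was close to its detection limit at this age. Klf9KI hearts held 31, 7 and 2 counts of it and Wt-Cre hearts 23, 20 and 33, which is 1.78, 0.392 and 0.0627 against 1.14, 0.982 and 1.81 CPM. Klf9KI heart 3, the most deeply sequenced, had the fewest. Cd163 was as uneven, at 4.42, 0.616 and 0.502 CPM in Klf9KI hearts against 1.73, 0.884 and 1.865 CPM in Wt-Cre hearts, with Klf9KI heart 1 above and the other Klf9KI hearts below all controls. The pan-macrophage genes overlapped, with Csf1r between 22.0 and 36.1 CPM in Klf9KI and between 16.1 and 27.8 CPM in Wt-Cre hearts. Cx3cr1 lay between 8.56 and 13.9 CPM against 11.3 and 13.4, and Lyve1 between 6.71 and 13.9 CPM against 8.30 and 12.4. With only the hearts that lack Xist, Cd163 had a log2 fold change of -1.55 in place of 0.29 and Adgre1 one of -0.35 in place of 0.33, neither past the threshold. Mrc1 passed it with no filter on low counts (0.65, adjusted p = 0.032) and with the atrial gene Myl7 as a covariate (1.17, adjusted p = 0.0489).

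At 4 weeks the recruited marker Ccr2 and the pan-macrophage genes Cx3cr1 and Adgre1 rose in Klf9KI hearts, while no resident marker did. That is 3 of 9 genes higher, beside 6.65% of all genes tested. By edgeR 0 of 9 were lower, beside 6.75% of all genes, although Cd163 had an unadjusted p of 0.0101 and was called lower by DESeq2. The hearts did not overlap between genotypes for 3 of the 9 genes, beside 32.1% of all genes. In the authors' deposited table Adgre1, Cx3cr1, Ccr2 and Cd163 had adjusted p-values of 0.000376, 0.00346, 0.00835 and 0.0064 at this age. In a whole heart more cells of a type and more RNA per cell cannot be told apart.

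Ccr2, which carries monocytes towards Ccl2, had 7.11, 4.17 and 5.78 CPM in Klf9KI hearts against 2.57, 2.41 and 2.32 CPM in Wt-Cre hearts at 4 weeks. Every Klf9KI heart was above every control, and the log2 fold change was 1.22 (SE 0.29, adjusted p = 0.0172). Cx3cr1 had 19.0, 15.8 and 17.7 CPM against 11.2, 8.34 and 3.89 CPM, again without overlap, and the control hearts were the more scattered. Its log2 fold change was 1.16 (SE 0.30, adjusted p = 0.0308). Adgre1 had 29.6, 26.5 and 69.7 CPM against 18.9, 17.6 and 12.3 CPM. Klf9KI heart 3 was far above the other hearts, and the log2 fold change of 1.37 (SE 0.37, adjusted p = 0.0475) was 0.79 (adjusted p = 0.0538) without it. The Adgre1 call was also lost without Wt-Cre heart 1, 2 or 3 (1.5, 1.43 and 1.2). The Cx3cr1 call was lost without Klf9KI heart 1, 2 or 3 (1.10, 1.23 and 1.16) or Wt-Cre heart 2 (1.21), and the Ccr2 call without Klf9KI heart 1 or 3 (1.03 and 1.21). Without Klf9KI heart 3 at 4 weeks 0 of the 9 genes were called. With no filter on low counts the Adgre1 call was lost (1.39, adjusted p = 0.243), and in the fit of 18 hearts so was that of Ccr2 (1.23, adjusted p = 0.236).

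The 3 resident markers at 4 weeks had log2 fold changes below 0, none past the threshold by edgeR. Cd163 had 18.5, 26.0 and 15.2 CPM in Klf9KI hearts against 23.8, 38.5 and 56.3 CPM in Wt-Cre hearts. Only Klf9KI heart 2 reached the range of the controls, and the log2 fold change was -0.99 (SE 0.31, adjusted p = 0.0664). It passed without Wt-Cre heart 1 (-1.25, adjusted p = 0.00691), by DESeq2 (-0.99, adjusted p = 0.00639) and, by a small margin, when edgeR's robust option was off (adjusted p = 0.0487). Lyve1 had 17.7, 15.2 and 19.98 CPM against 14.7, 34.1 and 30.8 CPM. Wt-Cre heart 1 was below all 3 Klf9KI hearts, and the log2 fold change of -0.59 (SE 0.27, adjusted p = 0.199) became -0.87 (adjusted p = 0.00785) without it. Mrc1 had 41.2, 46.1 and 34.3 CPM against 45.4, 69.5 and 31.1 CPM, with full overlap and a log2 fold change of -0.26 (SE 0.26, adjusted p = 0.57).

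Other pan-macrophage genes at 4 weeks did not pass the test. Csf1r, on which macrophage survival depends, had 57.9, 70.1 and 59.6 CPM in Klf9KI hearts against 65.7, 74.0 and 52.4 CPM in Wt-Cre hearts. The ranges coincided, with a log2 fold change of -0.03 (SE 0.15, adjusted p = 0.916). Cd68 had 6.36, 7.96 and 8.90 CPM against 7.27, 7.66 and 5.88 CPM, a log2 fold change of 0.16 (SE 0.22, adjusted p = 0.704). Trem2 was low in both groups, at 2.32, 1.83 and 0.951 CPM against 0.684, 1.46 and 0.579 CPM. Only Klf9KI heart 3 fell within the range of the controls, and the log2 fold change was 0.89 (SE 0.51, adjusted p = 0.295). The median log2 fold change of the 9 genes was 0.16, beside 0.00 for all genes tested.

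**Figure D2:**
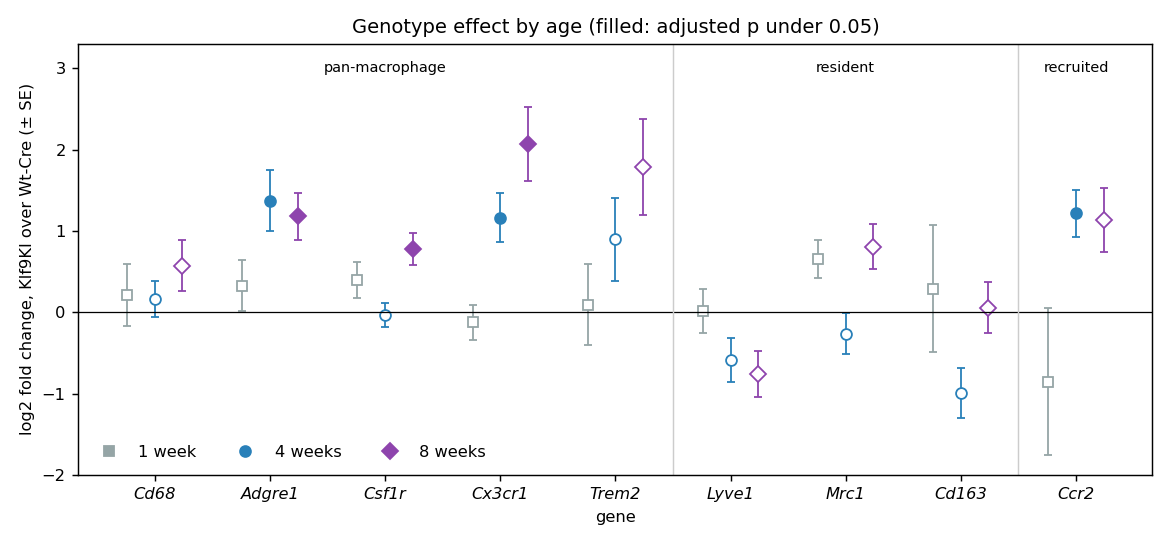
Log2 fold change of Klf9KI over Wt-Cre hearts for each marker gene at 1, 4 and 8 weeks, with the SE of the fit; filled symbols passed an adjusted p of 0.05. At 4 and 8 weeks Cx3cr1, Adgre1 and Ccr2 lie above 1 and Lyve1 lies below 0.

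At 8 weeks Cx3cr1, Adgre1 and Csf1r, all of the group called pan-macrophage, rose in Klf9KI hearts. That is 3 of 9 genes, beside 4.96% of all genes tested. No marker was called lower by edgeR, by which 5.52% of all genes were, nor by DESeq2, and Lyve1 had an unadjusted p of 0.0219. In all, 7 of the 9 genes had an unadjusted p under 0.05. The hearts did not overlap between genotypes for 6 of the 9 genes, with 5 higher and 1 lower in Klf9KI hearts, beside 31.5% of all genes. The median log2 fold change was 0.81, beside 0.04 for all genes. In the authors' deposited table Cx3cr1, Adgre1, Csf1r and Trem2 had adjusted p-values of 0.0004, 0.00455, 0.00881 and 0.0161 at this age.

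Cx3cr1 had the largest difference of the 9 genes at 8 weeks. It had 6.52, 11.7 and 9.13 CPM in Klf9KI hearts against 3.51, 1.76 and 1.15 CPM in Wt-Cre hearts, without overlap, with a log2 fold change of 2.07 (SE 0.45, adjusted p = 0.0155). On the common scale of 18 hearts Klf9KI hearts averaged 9.38 CPM at 1 week, 18.2 at 4 weeks and 10.6 at 8 weeks, so their level at 8 weeks was near that at 1 week while that of the controls was lower. Among the genes inside its deposited model, the actin-binding Xirp1 of muscle had 457, 640 and 177 CPM in Klf9KI hearts against 175, 187 and 133 CPM in Wt-Cre hearts at 8 weeks (log2 fold change 1.36, SE 0.38, adjusted p = 0.0416). Its Klf9KI heart 3 lay within the control range. At 4 weeks Xirp1 had 302, 338 and 246 CPM against 277, 242 and 156 CPM, with overlap. Gorasp1 and Csrnp1 had log2 fold changes of -0.51 (adjusted p = 0.128) and 0.32 (adjusted p = 0.685) at 8 weeks. The part of these neighbours in the Cx3cr1 counts was not tested.

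Adgre1 had 14.2, 29.2 and 20.01 CPM in Klf9KI hearts against 10.3, 8.17 and 9.44 CPM in Wt-Cre hearts at 8 weeks. The groups did not overlap, and the log2 fold change was 1.18 (SE 0.29, adjusted p = 0.0249). Csf1r had 66.7, 78.2 and 52.4 CPM against 38.0, 36.1 and 40.7 CPM. Here too every Klf9KI heart was above every control, with a log2 fold change of 0.78 (SE 0.20, adjusted p = 0.0286). Hmgxb3, which overlaps the end of Csf1r, had a log2 fold change of 0.19 (SE 0.24, adjusted p = 0.681). The part of Hmgxb3 in the Csf1r counts was not tested. Without Wt-Cre heart 2 or 3 none of the 9 genes was called, Cx3cr1 then having a log2 fold change of 1.95 (adjusted p = 0.0836) or 1.77 (adjusted p = 0.0633). The Adgre1 call was lost without Wt-Cre heart 1, 2 or 3 (1.27, 1.10 and 1.19), and the Csf1r call without any of these (0.78, 0.74 and 0.82) or Klf9KI heart 1 (0.77). The mitochondrial share of the counts, given above, differs between the same groups and between the genotypes at the other ages. Its part in the differences of the markers was not tested.

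Trem2, the receptor of lipid-laden macrophages, was uneven at 8 weeks, at 9.24, 3.48 and 16.0 CPM in Klf9KI hearts against 2.46, 1.11 and 4.68 CPM in Wt-Cre hearts. Klf9KI heart 2 lay within the control range, and the log2 fold change of 1.79 (SE 0.59) had an adjusted p of 0.081. It passed without that heart (2.18, adjusted p = 0.00869), by DESeq2 (1.79, adjusted p = 0.0167), with no filter on low counts (adjusted p = 0.000315) and in the fit of 18 hearts (1.76, adjusted p = 0.029). Cd68 had 7.51, 12.5 and 9.42 CPM against 7.73, 5.01 and 6.98 CPM. Klf9KI heart 1 lay within the control range, and the log2 fold change was 0.57 (SE 0.31, adjusted p = 0.293).

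None of the 3 resident markers passed the test at 8 weeks, and differences between them were not tested. Lyve1 had 16.6, 15.5 and 14.9 CPM in Klf9KI hearts against 38.0, 24.9 and 16.6 CPM in Wt-Cre hearts. Each Klf9KI heart was below each control, the closest pair at 16.56 and 16.57 CPM, and the log2 fold change was -0.76 (SE 0.28, adjusted p = 0.123). Mrc1 had 36.3, 60.5 and 37.0 CPM against 28.7, 17.0 and 30.7 CPM, with each Klf9KI heart higher and a log2 fold change of 0.81 (SE 0.28, adjusted p = 0.093). It passed with no filter on low counts (0.82, adjusted p = 0.0112). Cd163 had 15.8, 26.7 and 15.7 CPM against 26.8, 14.8 and 14.3 CPM, with full overlap and a log2 fold change of 0.06 (SE 0.31, adjusted p = 0.934). Ccr2 had 5.16, 4.84 and 6.14 CPM against 3.3, 1.86 and 2.15 CPM. Its groups did not overlap, and the log2 fold change of 1.13 (SE 0.39, adjusted p = 0.0921), close to the 1.22 found at 4 weeks, did not pass here.

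Whether the genotype effect changed with age was tested in 1 fit of 18 hearts. For Cx3cr1 the log2 fold change at 8 weeks exceeded that at 1 week by 2.16 (SE 0.51, adjusted p = 0.0097). This was 1 of 9 genes, beside 9.45% of all genes tested, and 3 of the 9 had an unadjusted p under 0.05. Between 4 weeks and 1 week the effect differed for 0 of 9 genes by edgeR and by DESeq2, with 3 at an unadjusted p under 0.05, beside 1.15% of all genes called. Between 8 and 4 weeks it differed for 0 of 9 by both tools, with 2 at an unadjusted p under 0.05, beside 0.48% of all genes. The Ccr2 effect was larger by 2.12 (SE 0.85, adjusted p = 0.358) at 4 weeks and by 1.99 (SE 0.85, adjusted p = 0.155) at 8 weeks than at 1 week. Both passed without Klf9KI heart 1 at 1 week, at 3.88 (adjusted p = 0.00637) and 3.80 (adjusted p = 0.00234), and with a term for the hearts that carry Xist, at 5.41 and 5.28, values that rest on Klf9KI hearts with 7 and 2 or with 2 counts. For Mrc1 the effect at 8 weeks was above that at 4 weeks by 1.04 (SE 0.42, adjusted p = 0.276) and for Csf1r by 0.79 (SE 0.28, adjusted p = 0.217). An effect that passed at one age and not at another, as for Ccr2 and Csf1r, was thus not shown to differ between 4 and 8 weeks.

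The balance between the markers was taken within each heart as a log2 ratio on the scale of 18 hearts, with a prior count of 2, and without a test. The ratio of Ccr2 to the mean of Lyve1, Mrc1 and Cd163 was -1.73, -2.62 and -1.90 in Klf9KI and -3.24, -4.16 and -3.96 in Wt-Cre hearts at 4 weeks. At 8 weeks it was -2.02, -2.57 and -1.73 against -3.18, -3.24 and -3.11. At both ages each Klf9KI heart had more Ccr2 for its resident markers than each control. The order was opposite at 1 week, where the ratio was -2.67, -3.26 and -4.41 in Klf9KI and -2.4, -2.0 and -1.85 in Wt-Cre hearts, with the few Ccr2 counts noted for that age. Cx3cr1 set against the same mean was -0.45 ± 0.24 in Klf9KI and -2.27 ± 1.05 in Wt-Cre hearts at 4 weeks, and -1.39 ± 0.27 against -3.46 ± 0.45 at 8 weeks (SD, n = 3), with no overlap at either age. Adgre1 over that mean was 0.67 ± 0.88 against -1.13 ± 0.63 at 4 weeks. At 8 weeks it was -0.21 ± 0.32 against -1.26 ± 0.28, with no overlap at either age. Trem2 was -3.81 ± 0.54 against -5.20 ± 0.50 at 4 weeks, without overlap, and overlapped at 8 weeks. A higher ratio to the resident markers was thus not particular to Ccr2. Over the mean of 6 genes of leukocytes in general, however, Cx3cr1 overlapped between the genotypes at both ages, at 0.79 ± 0.50 against 0.55 ± 0.95 at 4 weeks and -0.09 ± 0.45 against -1.12 ± 0.77 at 8 weeks. At 1 week this Cx3cr1 ratio was lower in Klf9KI hearts without overlap, at 1.28 ± 0.34 against 1.885 ± 0.23.

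Set against the same leukocyte mean, Ccr2 overlapped between the genotypes at 4 and 8 weeks. That ratio was -0.84 ± 0.51 in Klf9KI and -0.96 ± 0.25 in Wt-Cre hearts at 4 weeks and -0.80 ± 0.20 against -0.84 ± 0.34 at 8 weeks (SD, n = 3). Lyve1 on the same measure was 0.94, 1.07 and 0.39 against 1.65, 2.94 and 2.42 at 4 weeks, and 1.07, 0.84 and 0.28 against 3.03, 2.66 and 1.82 at 8 weeks. Klf9KI hearts were lower without overlap at both ages, whereas at 1 week they overlapped, at 1.49, 1.42 and 0.54 against 1.76, 1.34 and 1.79. Cd163 was 0.95 ± 0.92 against 2.91 ± 0.51 at 4 weeks, without overlap, and 0.99 ± 0.63 against 2.02 ± 0.47 at 8 weeks, where Klf9KI heart 2 (1.62) reached the lowest control (1.61). Mrc1, the other resident marker, overlapped at both ages, at 1.99 ± 0.76 against 3.22 ± 0.77 at 4 weeks and 2.19 ± 0.60 against 2.48 ± 0.32 at 8 weeks. The leukocyte genes themselves had median log2 fold changes of 0.93 and 1.17, so a gene with no change of its own falls on this measure. Csf1r and Cd68 also had lower Klf9KI means at both ages, with overlap, as at 2.62 against 3.68 for Csf1r at 4 weeks. Adgre1 had slightly higher Klf9KI means, at 1.91 ± 0.26 against 1.70 ± 0.52 at 4 weeks and 1.10 ± 0.57 against 1.08 ± 0.07 at 8 weeks. Trem2 had a higher Klf9KI mean at 8 weeks, at -0.22 ± 0.92 against -0.85 ± 0.86. All of these overlapped between the genotypes.

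**Figure D3:**
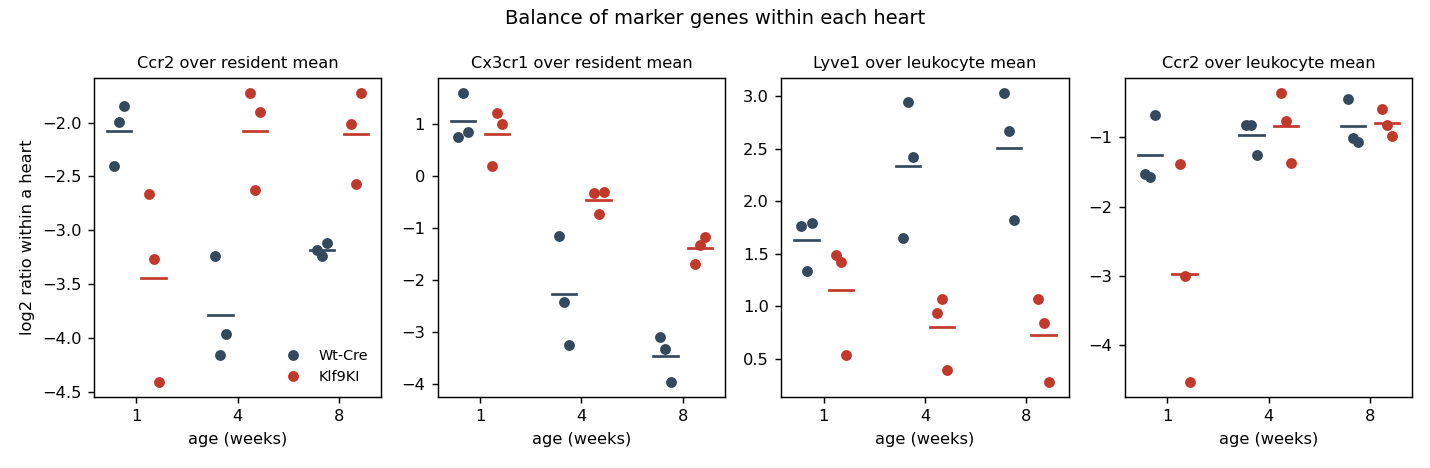
Log2 ratios within each heart by age in weeks; points are hearts, short lines means of 3 hearts, dark points Wt-Cre and red points Klf9KI. Ccr2 and Cx3cr1 over the mean of Lyve1, Mrc1 and Cd163 lie higher in all Klf9KI hearts at 4 and 8 weeks, Lyve1 over the leukocyte mean lies lower, and Ccr2 over the leukocyte mean overlaps.

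Levels of different genes were compared per kilobase of the deposited gene length. Csf1r had the highest mean in 4 of the 6 groups, at 13.5 ± 2.65 CPM per kb in Klf9KI hearts at 8 weeks (SD, n = 3). Only in that group did its range lie apart from the next marker, and in the others it overlapped Lyve1. Adgre1 had the highest mean in Klf9KI hearts at 4 weeks, 12.96 ± 7.44 CPM per kb, but its range overlapped that of Csf1r (12.8 ± 1.35). In Wt-Cre hearts at 8 weeks Lyve1 was the highest at 9.07 ± 3.69, overlapping Csf1r at 7.84 ± 0.476 and, at its lowest heart, Cd68 at 5.23 ± 1.12. Lyve1 was in 5th place in Klf9KI hearts of that age, at 5.37 ± 0.284, below Csf1r, Cd68, Mrc1 and Adgre1, of which only Adgre1 overlapped it. Ccr2 had the lowest or next to lowest mean in each group. At 4 weeks Ccr2 was above Trem2 without overlap in both genotypes, 0.841 ± 0.217 against 0.344 ± 0.140 in Klf9KI hearts, and at 8 weeks Trem2 had the higher mean, 1.94 ± 1.27 against 0.796 ± 0.1 in Klf9KI hearts, with ranges that overlapped. The order by the authors' deposited FPKM, which rests on the same counts and lengths, was the same in all 6 groups.

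Genes that act with the markers were followed as a list of 12 ligands, partners and regulators. At 1 week 0 of the 11 tested passed by edgeR or DESeq2, and 0 had an unadjusted p under 0.05. At 4 weeks 4 of 10 were higher, with a median log2 fold change of 1.12 beside 0.00 for all genes. They were Ccl12 and Ccl2, ligands of Ccr2 (3.09, SE 0.44, adjusted p = 0.00105, and 1.85, SE 0.45, adjusted p = 0.0192), Cx3cl1, the ligand of Cx3cr1 (1.37, SE 0.23, adjusted p = 0.00271), and Hmox1, which degrades haem taken up through Cd163 (1.25, SE 0.19, adjusted p = 0.00136). Ccl2 averaged 5.05 ± 2.52 CPM in Klf9KI and 1.39 ± 0.433 CPM in Wt-Cre hearts, and Cx3cl1 19.9 ± 0.594 against 7.66 ± 2.61 CPM (SD, n = 3). In each of the 4 the Klf9KI hearts were above the controls.

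At 8 weeks 2 of 10 were higher, Cx3cl1 (1.82, SE 0.33, adjusted p = 0.00623) and Apoe, a lipid carrier that Trem2 binds (0.83, SE 0.20, adjusted p = 0.0256), with a median of 0.71 beside 0.04 for all genes. Ccl2 had a log2 fold change of -0.36 (SE 0.57, adjusted p = 0.756) at that age, and Ccl12 one of 1.497 (SE 0.81, adjusted p = 0.286). Csf1 and Il34, the ligands of Csf1r, had log2 fold changes of 0.09 and 0.03 at 4 weeks and of 0.57 and 0.56 at 8 weeks, none past the threshold. Klf9KI hearts were above the controls for both at 8 weeks. Tyrobp, the signalling adaptor of Trem2, had 0.26 and 0.62 at the 2 ages, and Spi1, the myeloid transcription factor, 0.98 (adjusted p = 0.0789) and 0.99 (adjusted p = 0.103), with Klf9KI hearts above the controls at both ages. Ccl7 had 2.06 (adjusted p = 0.164) and 0.77 (adjusted p = 0.518). Hcst and Hp were under the filter on low counts at 4 and 8 weeks.

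Further macrophage genes rose at the same ages. Over 6 lists of macrophage genes and partners, including the 12 above, edgeR called 0 of 58 genes at 1 week (8 at an unadjusted p under 0.05, 2 by DESeq2), 15 higher and 1 lower of 62 at 4 weeks (17 called by DESeq2), and 12 higher and 0 lower of 60 at 8 weeks (15 called by DESeq2, 23 at an unadjusted p under 0.05). Over all genes 6.65% were called higher and 6.75% lower at 4 weeks, and 4.96% and 5.52% at 8 weeks. Leaving out 1 heart gave 12 to 20 calls at 4 weeks, with the fewest without Klf9KI heart 3. It gave 5 to 17 at 8 weeks, with the fewest without Wt-Cre heart 2. Among 17 other macrophage genes, 6 rose at each of the 2 ages. At 4 weeks they included the pore-forming Mpeg1 (log2 fold change 1.42, SE 0.16, adjusted p = 0.000219), the immunoglobulin receptor Fcgr1 (1.99, SE 0.33, adjusted p = 0.00257), the protease Ctss (0.90, SE 0.16, adjusted p = 0.00436) and Aif1 (1.75, SE 0.37, adjusted p = 0.00993). At 8 weeks they included Laptm5 (1.304, adjusted p = 0.00325), Mpeg1 (1.78, adjusted p = 0.00542), Ms4a7 (2.07, adjusted p = 0.0068) and Ctss (1.16, adjusted p = 0.0239). Median log2 fold changes of that list were 0.63 and 0.72.

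The list of other resident macrophage genes was divided at 4 weeks. Of 12 tested, the sialic acid receptor Siglec1 rose (1.52, SE 0.21, adjusted p = 0.00089) and the transglutaminase subunit F13a1 fell by 0.78 in log2 units (SE 0.14, adjusted p = 0.00455), with a median of -0.04. At 8 weeks 1 of 11 rose, the scavenger receptor Stab1 (1.00, SE 0.20, adjusted p = 0.0103), with a median of 0.09. Of the monocyte genes Ms4a4c rose at 4 weeks (4.12, SE 0.53, adjusted p = 0.00054), 1 of 6 tested. It averaged 4.57 CPM in Klf9KI and 0.25 CPM in Wt-Cre hearts, so the size of its fold change rests on few control counts. At 8 weeks 0 of 4 passed by edgeR and 1 by DESeq2, with 1 at an unadjusted p under 0.05. Of the lipid-associated macrophage genes 3 of 10 rose at 4 weeks, Lgals3, Npc2 and Gpnmb (2.09, 0.87 and 2.35), and 3 of 11 at 8 weeks, Lgals3, Cd9 and Npc2 (2.17, 0.96 and 0.77). Of 7 MHC class II genes, which present antigen, 0 passed by either tool at 4 or 8 weeks and 0 had an unadjusted p under 0.05.

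Markers of other cells moved in the same hearts. Of 6 genes of leukocytes in general 3 rose at 4 weeks (Cd52, Rac2 and Ptprc) and 3 at 8 weeks (Coro1a, Ptprc and Rac2), with median log2 fold changes of 0.93 and 1.17. Their summed level was 51.9 to 103.8 CPM in Klf9KI and 32.7 to 46.0 CPM in Wt-Cre hearts at 4 weeks, and 53.2 to 76.6 against 26.1 to 32.1 CPM at 8 weeks. Of 7 fibroblast genes 0 were called at 4 weeks by edgeR, 1 by DESeq2 and 5 had an unadjusted p under 0.05, with a median log2 fold change of 0.46 and a summed level of 3434 to 4020 CPM in Klf9KI and 2512 to 3281 CPM in Wt-Cre hearts. Among them 2 rose at 8 weeks, Col1a1 and Col3a1 (2.26 and 1.65), with a summed level of 2001 to 3432 against 1380 to 1680 CPM. Of 7 cardiomyocyte genes 2 fell at 4 weeks, Myh6 and Ryr2, by 0.68 and 0.92, and 1 at 8 weeks, Tnni3, by 1.33. The summed cardiomyocyte level was 44250 to 51320 against 59170 to 68350 CPM at 4 weeks and 32230 to 36530 against 45330 to 56970 CPM at 8 weeks. Of the T, B and NK cell genes Cd8a rose at 4 weeks (2.96, adjusted p = 0.0475), and the atrial genes Sbk2 and Sbk3 fell at both ages. Cd8a averaged only 0.942 CPM in Klf9KI and 0.115 CPM in Wt-Cre hearts, so its fold change rests on few counts. The lymphatic marker Prox1, of interest because lymphatic vessels also express Lyve1, had log2 fold changes of -0.23 at 4 weeks and -0.54 at 8 weeks (adjusted p = 0.681 and 0.16). The whole list of 5 lymphatic genes had medians of 0.23 and 0.63 at these ages. Prox1 went against the rest of that list at 8 weeks, since every other gene in it had a log2 fold change above 0. By edgeR 0 of the 5 were called at either age, with 1 at 4 weeks and 3 at 8 weeks at an unadjusted p under 0.05, and by DESeq2 0 and 1. Their summed level was 123 to 160 CPM in Klf9KI and 108 to 181 CPM in Wt-Cre hearts at 4 weeks and 73.9 to 95.9 against 65.1 to 77.3 CPM at 8 weeks. Of the lists of neutrophil, dendritic cell, mast cell, blood vessel endothelium and red cell genes, 0 genes were called at 4 or 8 weeks by edgeR or DESeq2 and 0 had an unadjusted p under 0.05. Of 9 neutrophil genes 2 and 3 were tested at these ages, with medians of -0.28 and 1.21. Of 5 dendritic cell genes 2 and 4 were tested, and of 6 mast cell genes 4 and 2. With so few tested, the lack of calls does not show that these 3 lists were unchanged. At 1 week 0 of 118 genes over all 17 lists were called by edgeR, 3 by DESeq2 and 14 had an unadjusted p under 0.05. The part of these cell types in the differences of the 9 markers was not tested.

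**Figure D4:**
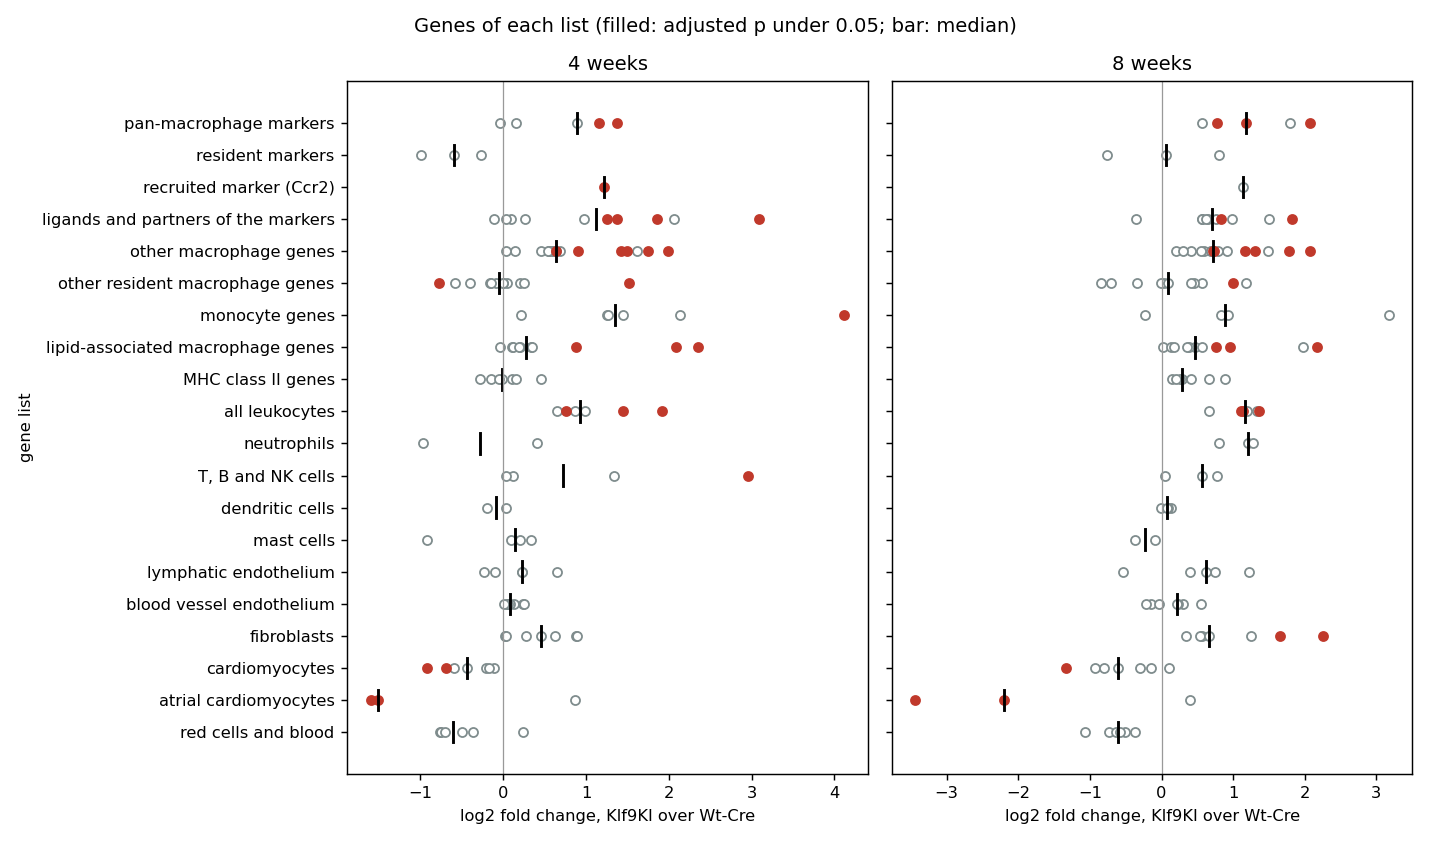
Log2 fold change of Klf9KI over Wt-Cre hearts for each tested gene of every list at 4 weeks (left) and 8 weeks (right); filled points passed an adjusted p of 0.05 and black bars are list medians. The medians of pan-macrophage, recruited and leukocyte lists lie at 0.89, 1.22 and 0.93 at 4 weeks, and that of the resident markers at -0.59.

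For each marker the 3 genes of most similar course were named by the Pearson correlation of log2 CPM over the 18 hearts, which share age and genotype groups, among 14138 genes. The scavenger receptor Cd163 was nearest to F13a1 (r = 0.98), Mrc1 to Csf1r (0.96) and Csf1r to Cd33 (0.96) and Maf (0.96). Adgre1 was nearest to Zmynd15, C3ar1 and Nckap1l (0.94 each), Ccr2 to C4b (0.93), Sod3 (0.91) and Selplg (0.91), and Lyve1 to Ccl9 (0.94). Cx3cr1 was nearest to Clip2 and the collagen genes Col4a5 and Col4a2 (0.91 each), Trem2 to Zfp954 (0.90), and Cd68 to Gda (0.94). Of the 27 genes so found, 3 are in the leukocyte lists used here, 9 were also found by rank correlation and 1 after the mean of each group was subtracted. Within the pan-macrophage group, Cx3cr1 had r of -0.02 with Cd68, 0.38 with Adgre1, 0.07 with Csf1r and -0.10 with Trem2 over the 18 hearts. After the mean of each group was subtracted these values were 0.45, 0.54, 0.28 and -0.23.

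Klf9-bound regions were compared with the 9 genes by the authors' own assignment. Of 5238 regions 2 list a marker gene, and each lies at a CpG island beside another gene's start. The region chr11:69671267-69671699 lies 5421 bases upstream of Cd68 and 940 bases into Eif4a1. Its deposited mean signal was 21.5 in sham and 19.4 in TAC, and it was called in both. The region chr7:110844308-110844569 lies 18515 bases from the start of Lyve1, beyond the end of the gene, and 57 bases before Rnf141. Its deposited mean signal was 23.9 in sham and 21.6 in TAC, and it was called in sham only. Both lie below the medians over all regions, 24.6 in sham and 23.2 in TAC. None of the regions used here lists Adgre1, Csf1r, Cx3cr1, Trem2, Mrc1, Cd163 or Ccr2. Each condition had 1 library, so these values have no replicate error, and they come from adult hearts whose labels name no knock-in.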

How the data were processed

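RNA was sequenced from 18 hearts, and the values used are the authors' deposited gene counts, whole numbers per gene and heart, one table for each age. Per the submitters' processing notes the tools were fastp, HISAT2 2.0.5, StringTie 1.3.3b and featureCounts 1.5.0-p3 on mm10, with DESeq2 1.20.0 and, for chromatin, BWA and MACS2 2.1.0; their settings are not given in the sources used here. The authors also deposited FPKM, which served only for an order of levels, and log2 fold changes with adjusted p-values, quoted as theirs. The deposited signal of a Klf9 region is its mean coverage in 1 library. The labels give 3 hearts for each sample, named replicates 1 to 3 by the table columns, and 20 columns of per-sample values were not used.

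Each age was tested with edgeR 4.0.16 (R 4.3.3, limma 3.58.1): filterByExpr, TMM scaling and the quasi-likelihood test with the robust option, adjusted by Benjamini-Hochberg over all genes tested at a threshold of 0.05. A single fit of 18 hearts over 21463 genes common to the tables gave the differences between ages. The tests are two-sided. DESeq2 1.42.0, no filter, no robust option, a replicate block, terms for Xist or Myl7 and omission of each heart were alternatives. CPM are on the TMM-scaled library size, so tables of different ages are compared only on the scale of the 18 hearts. The scripts were tested on simulated data. Python 3.11.15, pandas 2.3.3 and numpy 2.4.6 made the tables.

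The 9 genes and all gene lists were chosen with earlier results of these data known, so a list's direction is no independent evidence. Named genes are the 9 markers, Klf9, up to 4 called genes at each age from each macrophage list by adjusted p, the ligands and partners, up to 3 called genes from lists of other cell types, Myl7, Prox1 and Ptprc, and the 3 genes most like each marker. Genes overlapping a marker were added after their values were seen.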

Additional observations from a re-analysis of the deposited data

Results flagged for a closer look

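The genotype difference of Cx3cr1 differed between ages by a direct test, as 1 of 9 markers, beside 9.45% of all genes tested. Its log2 fold change at 8 weeks exceeded that at 1 week by 2.16 (edgeR quasi-likelihood test, SE 0.51, adjusted p = 0.0097), with all 3 Klf9KI hearts above the 3 Wt-Cre hearts at 8 weeks and overlap at 1 week. Over the 25 alternatives the value ran from 1.84 to 2.75 with adjusted p from 0.000751 to 0.0314. Its counts may include reads of the genes its deposited model overlaps, and the part of those was not tested.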

How the results depend on the processing

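Of 1700 alternative values for 81 results on the 9 genes, 1570 kept direction and side of the threshold, 42 lost a call, 32 gained one and 56 changed sign, none of the last with an adjusted p under the threshold on either side. The cause was not tested. With no filter 1 marker (Mrc1) was called at 1 week and 5 at 8 weeks, and 1 (Cx3cr1) changed from 4 to 8 weeks in Wt-Cre hearts, as without the robust option (1). The Myl7 covariate gave 1 at 1 week (Mrc1). The Xist term gave 1 marker whose effect differed at 4 weeks against 1 week (Ccr2) and 2 at 8 weeks against 1 week (Ccr2 and Cx3cr1).

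Over all genes 266 were called at 1 week, but 166 without the robust option, 530 by DESeq2, 672 with no filter, 10 with the Xist term, 21 in hearts without Xist alone, 49 with the Myl7 covariate and 47 in the fit of 18 hearts. At 8 weeks 1518 were called, and 3278 in the fit of 18 hearts. Leaving out 1 heart gave 78 to 238 genes at 1 week, 873 to 2654 at 4 weeks (1945 with all hearts) and 518 to 2102 at 8 weeks. Markers called then ran from 0 to 0, 0 to 4 and 0 to 4 at the 3 ages. Markers whose effect differed ran from 0 to 1 (4 against 1 week), 1 to 2 (8 against 1) and 0 to 0 (8 against 4), and those that changed with age in Wt-Cre hearts from 6 to 7 (1 to 4 weeks), 1 to 3 (4 to 8) and 6 to 8 (1 to 8).

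The labels do not say whether replicate numbers pair the hearts, and the counts did not settle it. Deviations of same-numbered hearts correlated at 0.0788, 0.0968 and -0.1184 at 1 week and 0.1122, 0.0289 and 0.2321 at 4 weeks. At 8 weeks the values were 0.0632, 0.1013 and 0.1441, and each heart there correlated best with its own number. At the other ages this did not hold for every heart. With a replicate block 0, 2 (Cx3cr1 and Ccr2) and 4 (Cx3cr1, Adgre1, Csf1r and Trem2) markers were called at the 3 ages; Adgre1 lost its call at 4 weeks (1.24, adjusted p = 0.235) and Trem2 gained one at 8 weeks (1.78, adjusted p = 0.0055). The block gave 189, 2566 and 1890 genes at the 3 ages. The effect then differed between ages for 0, 1 (Cx3cr1) and 0 markers. No paired analysis was possible for the age contrasts because hearts of different ages share no source.

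Signs at 1 week changed as follows, as log2 fold changes. The Xist term gave Cd68 -0.042, Adgre1 -0.37, Csf1r -0.0072, Lyve1 -0.64 and Cd163 -1.56. Hearts without Xist alone gave Cd68 -0.026, Adgre1 -0.35, Lyve1 -0.63 and Cd163 -1.55. The replicate block gave Trem2 -0.042, Lyve1 -0.02 and Cd163 -0.31, and the Myl7 covariate gave Trem2 -0.56 and Ccr2 0.11. For the difference between 4 weeks and 1 week the Xist term gave Cd68 0.18, Lyve1 0.036 and Cd163 0.54, and between 8 weeks and 1 week it gave Cd163 1.56 and the replicate block 0.14.

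Leaving out 1 heart moved these across 0. At 1 week Cd68 ran from -0.12 to 0.41, Adgre1 from -0.044 to 0.59, Cx3cr1 from -0.28 to 0.049, Trem2 from -0.36 to 0.44, Lyve1 from -0.22 to 0.27 and Cd163 from -1.40 to 0.75. At 4 weeks Csf1r ran from -0.17 to 0.078 and Mrc1 from -0.51 to 0.077, and at 8 weeks Cd163 from -0.25 to 0.42. Between 4 weeks and 1 week the effect on Cd68 ran from -0.25 to 0.28 and on Cd163 from -1.74 to 0.43. Between 8 weeks and 1 week it ran from -0.18 to 0.44 for Mrc1 and from -0.69 to 1.48 for Cd163. Between 8 and 4 weeks it ran from -0.54 to 0.37 for Adgre1, from -0.45 to 0.17 for Lyve1 and from -0.30 to 0.18 for Ccr2. In Wt-Cre hearts from 4 to 8 weeks Cd68 ran from -0.033 to 0.27, Lyve1 from -0.18 to 0.44 and Ccr2 from -0.10 to 0.35. With 3 hearts a group and few counts of Ccr2, Cd163 and Trem2 at 1 week, small differences were not detectable.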
